A study of Mus musculus with 3008 samples.

Results

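Granzyme B (Gzmb) and 7 further genes of cytotoxic granules, namely Gzma, Prf1, Nkg7, Ctsw, Srgn, Serpinb9 and Serpinb6b, were followed in single regulatory T cells (Tregs) of the mouse colon and spleen. These 8 genes of the 23725 in the count table were chosen by name, for their known place in or around the granule, with earlier results of these data known. Tregs are CD4+ T cells that carry the transcription factor Foxp3 and restrain immune responses. The cells came from male mice aged 7 months on the B6 background with a Foxp3-Ires-Gfp reporter, which marks Foxp3-expressing cells green in both tissues, and they were sorted as DAPI- TCRb+ CD4+ GFP+. Colon lamina propria was digested with collagenase and dispase, whereas spleen was broken up by mechanical means, and the effects of tissue and of dissociation cannot be told apart. Droplet sequencing (inDrops) gave a library of 619 colon cells (colon 1), a library of 1772 colon cells (colon 2) and a library of 617 spleen cells.

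Cytotoxic granules are storage vesicles of killer lymphocytes. Perforin (Prf1) opens the membrane of the target cell, and granzymes A and B (Gzma, Gzmb) are serine proteases that enter and cleave proteins there. Serglycin (Srgn) is the proteoglycan core that holds granzymes in the granule, Nkg7 is a granule membrane protein needed for efficient degranulation, and cathepsin W (Ctsw) is a cysteine protease of killer cells. Serpinb9 is an inhibitor of granzyme B that shields the cell from its own enzyme, and Serpinb6b is a related intracellular serpin. Activated Tregs are known to make granzyme B, and both perforin-dependent and perforin-independent uses of it have been described in mice.

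The libraries held 1253246 unique molecular identifiers (UMIs, each standing for 1 captured transcript) in colon 1, 3916649 in colon 2 and 1255946 in spleen. The median cell held 1767, 2026.5 and 1847 UMIs in the same order of libraries. No animal is named in the labels, and colon 2 is titled as replicate 2 although its sample type reads rep1b, so whether the colon libraries are separate replicates is not known. Each library stands as 1 sample, no test across animals was possible, and intervals below are 95% intervals of counting error only. Both colon ratios share the single spleen library. The colon libraries shared 9 cell barcodes, colon 1 shared 5 with spleen and colon 2 shared 11 with spleen.

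The 300 bases around the start sites of Gzmb and Nkg7 are shown first, because this pair of members was found in the same colon cells. Both windows are from RefSeq, build GRCm38.p6, and run 5′ to 3′ on the gene's strand. They run from 250 bases before the gene's RefSeq start to 50 after it. These starts differ from those of the GENCODE gene positions given below. By the latter, Gzmb starts at 56262260, outside its window, and Nkg7 starts at 43437073, inside its window. Capitals mark 3 motifs searched on both strands, none of which overlapped another here: TGANTCA (AP-1), TGTGGT (RUNX) and GGTGTGA (T-box). The Gzmb window is chr14:56262285-56262584 on the minus strand, and the Nkg7 window is chr7:43436888-43437187 on the plus strand.
Gzmb: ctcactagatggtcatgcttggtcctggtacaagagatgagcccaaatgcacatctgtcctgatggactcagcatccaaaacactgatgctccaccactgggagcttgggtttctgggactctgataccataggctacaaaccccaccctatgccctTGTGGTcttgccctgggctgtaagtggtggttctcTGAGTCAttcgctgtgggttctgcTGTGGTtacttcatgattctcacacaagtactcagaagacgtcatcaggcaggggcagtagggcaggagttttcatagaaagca
Nkg7: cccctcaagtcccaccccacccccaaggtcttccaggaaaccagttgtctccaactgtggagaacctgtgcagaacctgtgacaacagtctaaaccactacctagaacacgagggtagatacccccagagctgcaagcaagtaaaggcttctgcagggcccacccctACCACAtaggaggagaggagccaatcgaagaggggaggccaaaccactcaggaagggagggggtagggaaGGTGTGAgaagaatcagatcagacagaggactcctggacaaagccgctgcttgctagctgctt
Counted from the 5′ end of the window, the Gzmb sequence held an AP-1 match from base 193 and RUNX matches from bases 158 and 217. The Nkg7 sequence held a RUNX match from base 168, as its reverse complement, and a T-box match from base 238. Among 32851 such windows of the mouse genome, 7.81% held the AP-1 letters, 16.8% the RUNX letters and 3.98% the T-box letters. A window was found for 7 of the 8 members, and the RUNX letters were in at least 1 window of 6 of them. A match shows only that these letters are present.

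Gzmb itself, on chromosome 14 from 56258838 to 56262260 on the minus strand of mm10, was near absent from spleen Tregs and abundant in colon Tregs. It had 3317 UMIs in colon 1, 10415 in colon 2 and 52 in spleen. Per 1000000 UMIs of the library (CPM), that was 2647 (2557 to 2738) in colon 1, 2659 (2608 to 2711) in colon 2 and 41.4 (30.9 to 54.3) in spleen. The colon level was 63.9 times the spleen level in colon 1 (48.6 to 85.8) and 64.2 times in colon 2 (48.9 to 86.1). Colon 2 over colon 1 was 1.0 (0.966 to 1.05), so that the colon libraries did not differ beyond counting error and both lay far above spleen. The 13 spleen cells behind the lower level make the ratio's denominator small, and leaving out the deepest 5% of cells in each library gave log2 ratios of 6.28 and 6.23 in place of 6.0 and 6.01.

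**Figure D1:**
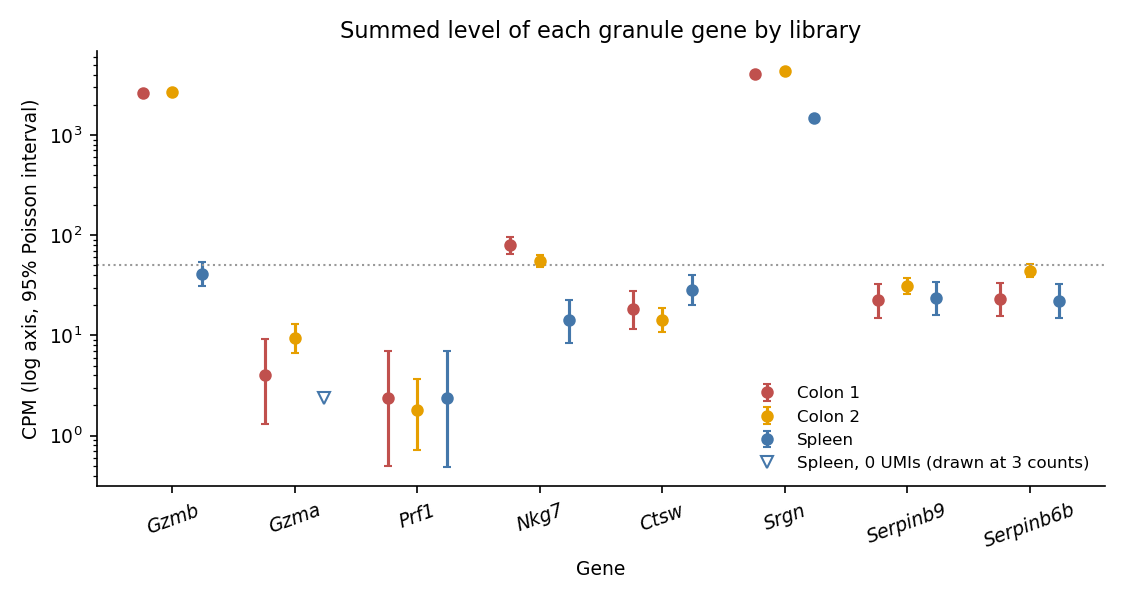
Summed level of the 8 granule genes in colon 1, colon 2 and spleen, as CPM on a log axis with 95% Poisson intervals; the dotted line marks 50 CPM and the open triangle marks a gene with 0 UMIs, drawn at the level of 3 counts. Gzmb stood at 2647 and 2659 CPM in the colon libraries against 41.4 in spleen, and Prf1 stayed between 1.79 and 2.39 CPM in every library.

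The transcript of the pore former was rare in all 3 libraries. Prf1 (chromosome 10, 61297833 to 61304680, plus strand) had 3 UMIs in colon 1, 7 in colon 2 and 3 in spleen, which is 2.39 (0.494 to 7.00), 1.79 (0.719 to 3.68) and 2.39 (0.493 to 6.98) CPM. The ratio to spleen was 1.0 in colon 1 (0.134 to 7.48) and 0.748 in colon 2 (0.171 to 4.48), intervals too wide to show a difference of several fold in either direction. Each of these UMIs was nearly alone in its cell, with no cell above 2. Gzma (chromosome 13, 113093825 to 113100981, minus strand) had 5 UMIs in 3 cells of colon 1, 37 UMIs in 14 cells of colon 2 and none in spleen. Against a spleen floor of 3 counts, its CPM ratio was 1.67 in colon 1 and 3.95 in colon 2. These values are not lower limits, and the interval of the colon 1 ratio, which starts at 0.918, includes no difference. Granzyme A was thus detected in 0.485% of colon 1 cells and 0.79% of colon 2 cells. It was found in 0 of 617 spleen cells, with an exact interval of 0 to 0.596% (0.486% at a floor of 3 counts).

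Serglycin was the member found most widely among cells. Srgn (chromosome 10, 62493833 to 62527451, minus strand) had 4006 CPM in colon 1 (3896 to 4119), 4321 in colon 2 (4256 to 4387) and 1471 in spleen (1405 to 1540). The colon libraries were 2.72 times (2.58 to 2.87) and 2.94 times (2.80 to 3.08) the spleen level, and colon 2 was 1.08 times colon 1 (1.05 to 1.11). It was found in 548 of 619 cells of colon 1, in 1617 of 1772 of colon 2 and in 349 of 617 of spleen. Among cells with Srgn, the median count was 7 UMIs in colon 1, 8 in colon 2 and 4 in spleen, so that both the share of cells and the count per cell were higher in colon.

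Nkg7 (chromosome 7, 43437073 to 43438249, plus strand) was low in all libraries and higher in colon. It had 79.0 CPM in colon 1 (64.2 to 96.2), 55.1 in colon 2 (48.0 to 63.0) and 14.3 in spleen (8.49 to 22.7). The ratio to spleen was 5.51 in colon 1 (3.31 to 9.68) and 3.85 in colon 2 (2.38 to 6.62). Colon 2 stood at 0.698 times colon 1 (0.548 to 0.895), the opposite order from Srgn.

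Cathepsin W did not go with these genes. Ctsw (chromosome 19, 5465043 to 5468507, minus strand) had 18.4 CPM in colon 1 (11.6 to 27.5), 14.3 in colon 2 (10.8 to 18.6) and 28.7 in spleen (20.1 to 39.7). Its ratio to spleen was 0.64 in colon 1 (0.362 to 1.11) and 0.499 in colon 2 (0.322 to 0.781), so that the interval left out equality in colon 2 and included it in colon 1. Found in 16, 40 and 25 cells of colon 1, colon 2 and spleen, it was below the 50 CPM used as a minimum here.

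The serpins stood within 2-fold of their spleen level in the main setting. Serpinb6b in colon 2 was near that factor, with log2 ratios from 0.72 to 1.04 over the scalings and cell filters tried. Serpinb9 (chromosome 13, 33003250 to 33017957, plus strand) had 22.3 CPM in colon 1 (14.8 to 32.3), 31.4 in colon 2 (26.1 to 37.5) and 23.9 in spleen (16.1 to 34.1). Colon 1 stood at 0.935 times spleen (0.538 to 1.62) and colon 2 at 1.31 times (0.876 to 2.03), and both intervals include equality. Serpinb6b (chromosome 13, 32965209 to 32979067, plus strand) had 23.1, 44.2 and 22.3 CPM in colon 1, colon 2 and spleen. It was 1.04 times spleen in colon 1 (0.596 to 1.81) and 1.98 times in colon 2 (1.32 to 3.07), and the colon libraries themselves differed 1.91-fold (1.28 to 2.94). The counting of reads shared by near copies is not given in the sources used here, which leaves the split among the Serpinb6 and Serpinb9 families, and between Gzmb and its granzyme neighbours, uncertain.

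Of the 8 members, 3 reached 50 CPM in spleen or in both colon libraries, and all 3 of them (Gzmb, Srgn and Nkg7) were above spleen by a factor of 2 or more in each colon library. None of the 3 was lower by that factor. Over all genes that met the same minimum, 409 of 3482 passed upwards, which is 11.7%, and 155 passed downwards, which is 4.45%. The members that passed the minimum through colon alone had to be higher there, so the count of 3 is a description only. Ribosomal protein genes took 17.6% of the UMIs of colon 1, 16.3% of colon 2 and 28.5% of spleen. With those genes left out of the totals, the split over all genes was 348 upwards and 351 downwards, the median log2 ratio over the 3482 genes became -0.17 and -0.18 in place of 0.03 and 0.05, and the same 3 members passed.

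The other parts of the granule pathway were examined in gene lists. Of 8 other granzymes, 2 had any UMI. Gzmc had 6 UMIs in colon 1, 27 in colon 2 and 1 in spleen, and Gzmm had 1, 2 and 0, while Gzmk had none. The 18 genes of granule enzymes and exocytosis had 11 above the minimum, with a median log2 ratio of -0.12 in colon 1 and -0.02 in colon 2, against 0.03 and 0.05 over all genes. Only Stx11, the syntaxin needed for fusion of cytotoxic granules with the cell membrane, passed a factor of 2 in both colon libraries in that list. Stx11 stood at 316 CPM in colon 1, 350 in colon 2 and 31.1 in spleen, ratios of 10.2 (7.31 to 14.5) and 11.3 (8.19 to 15.9). It met the minimum through colon alone and so had to be higher there. The small GTPase Rab27a, which docks the granules, had 77.4, 58.7 and 71.7 CPM in colon 1, colon 2 and spleen and did not pass. The tether Unc13d was under the minimum, at 29.5, 27.6 and 35.8 CPM.

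None of the 11 enzymes that build the glycosaminoglycan chains of serglycin reached 50 CPM. Among the 11 other serpins, 3 met the minimum and Serpinb6a, a close relative of Serpinb6b, passed upwards, with 154 CPM in colon 1, 188 in colon 2 and 42.2 in spleen and ratios of 3.65 (2.68 to 5.04) and 4.45 (3.37 to 6.0). Serpinb6a too met the minimum through colon alone. Of 11 death ligands and cytokines of killer cells, only 2 met the minimum, and both were lower in colon. Over all genes, 4.45% passed downwards. Ccl5 met the minimum through spleen alone, which favours a lower colon level, so this count is a description only. Fasl and Ccl4 did not meet it and were higher in colon, as given in the last section. Ccl5, a chemokine of memory and killer T cells, had 24.7 CPM in colon 1, 16.9 in colon 2 and 113 in spleen. Ltb, which encodes lymphotoxin beta, had 409, 407 and 912 CPM. Of 11 receptors of cytotoxic cells, Klrg1 alone met the minimum, at 686 CPM in colon 1, 944 in colon 2 and 189 in spleen.

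Transcription factors of effector lymphocytes made up the list with the most genes past a factor of 2. Of 23 such regulators, 20 met the minimum, 13 were higher in both colon libraries, 2 were lower and 5 did not pass, with median log2 ratios of 1.45 and 1.5. Over all genes the shares past the factor were 11.7% upwards and 4.45% downwards, and this list, like the others, was chosen with earlier results of these data known. Genes that met the minimum through colon alone, such as Fosl2 and Irf4, had to be higher there. Id3 met it through spleen alone. The counts of this list are therefore a description only. Fosl2, an AP-1 family member, stood at 785 CPM in colon 1, 900 in colon 2 and 4.78 in spleen. Id2, which holds back E proteins in effector cells, had 1100, 1063 and 115 CPM, and Irf4, a factor of effector Tregs, had 195, 205 and 22.3 CPM. Id3, the E protein inhibitor of resting cells, ran the other way at 8.78, 14.3 and 157 CPM. The T-box factors of killer cells stayed below the minimum, with Tbx21 at 21.5, 33.4 and 3.98 CPM and Eomes at 1.6, 0.255 and 2.39 CPM in colon 1, colon 2 and spleen.

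**Figure D2:**
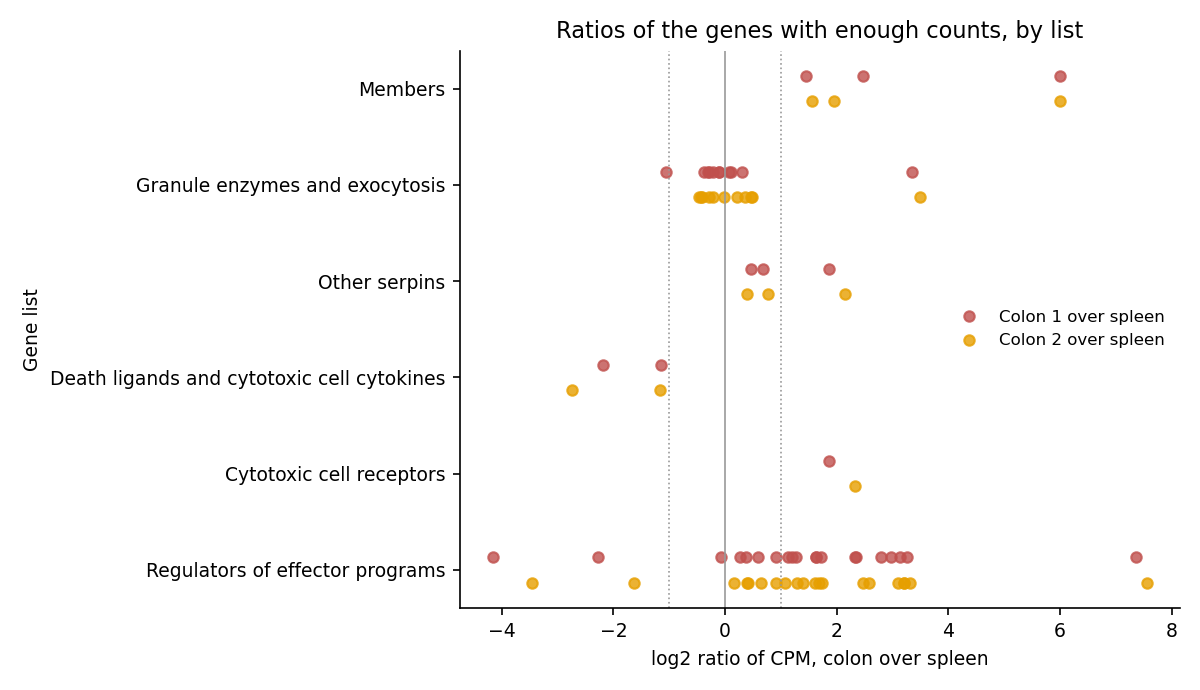
Log2 ratio of CPM, colon over spleen, of every gene with at least 50 CPM in spleen or both colon libraries in the lists that held one; each dot is a gene, red for colon 1 and orange for colon 2, and dotted lines mark a factor of 2. Apart from Stx11 (3.35 and 3.49) and Igf2r in colon 1, the granule and exocytosis genes lie between the dotted lines. Igf2r had 52.7 CPM in colon 1, 81.2 in colon 2 and 109 in spleen. Fosl2 (7.36 and 7.56) lies farthest to the right.

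Gzmb was found in part of the colon cells only. At the deposited depth it was found in 324 of 619 cells of colon 1 (52.3%, 48.3 to 56.3), in 934 of 1772 cells of colon 2 (52.7%, 50.4 to 55.1) and in 13 of 617 cells of spleen (2.11%, 1.13 to 3.58). To compare cells at equal depth, each was thinned at random to 1000 UMIs, which left out 9 shallower cells of colon 1, 28 of colon 2 and 4 of spleen. Gzmb was then found in 47.7% of cells of colon 1 (43.7 to 51.8), 47.6% of colon 2 (45.3 to 50) and 1.47% of spleen (0.673 to 2.77). Cells with 5 or more Gzmb UMIs after thinning made up 21.6% of colon 1 and 22.0% of colon 2. No spleen cell of 613 reached 5, with an exact interval of 0 to 0.6% (0.489% at the floor of 3 counts).

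**Figure D3:**
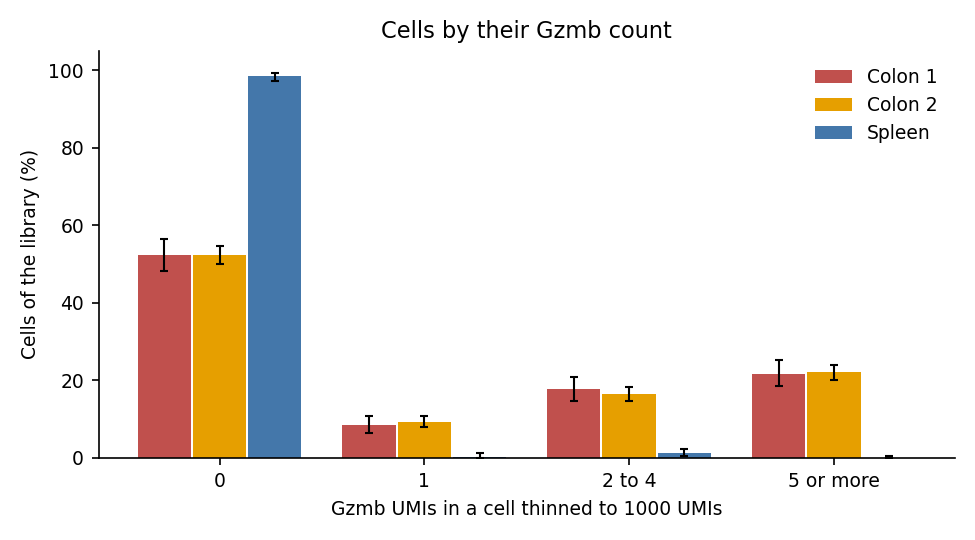
Share of cells with 0, 1, 2 to 4, and 5 or more Gzmb UMIs after thinning to 1000 UMIs, in colon 1, colon 2 and spleen, with exact 95% binomial intervals. The class without Gzmb held 52.3% and 52.4% of colon cells against 98.5% of spleen cells, and the colon libraries matched in every class within their intervals.

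The Gzmb transcripts were unevenly spread among the cells that had them. The median cell with Gzmb held 7 UMIs in both colon libraries and 3 in spleen, and the highest cell held 68 in colon 1, 90 in colon 2 and 9 in spleen. The tenth of cells with the most Gzmb carried 51.4% of all Gzmb UMIs in colon 1 and 52.2% in colon 2. The class with a single Gzmb UMI, where free RNA in the droplets could count as expression, held 8.36% of thinned colon 1 cells and 9.23% of colon 2 cells. Only 1 colon cell held 2 or more markers of B cells, plasma cells, epithelium, stroma or erythroid cells, and it held Gzmb (3041 UMIs in that cell, against a median of 1962 over all colon cells). Of cells with 2 or more markers of any 1 other type, 3 of 5 in colon 1 and 4 of 13 in colon 2 held Gzmb. With so few such cells, the level of free Gzmb RNA and the part of doublets were not tested.

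Co-detection asks which genes were found in the same colon cells as Gzmb. After thinning, colon 1 had 291 cells with Gzmb and 319 without, and colon 2 had 831 with and 913 without. The cells with Gzmb held 541 genes at the median in colon 1, against 543 in cells without it, and 568 against 573 in colon 2. Before thinning they held 1817 against 1727 UMIs in colon 1 and 2079 against 1995 in colon 2. At the thinned depth the number of genes per cell was therefore nearly equal on both sides.

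Nkg7 was the member found mainly with Gzmb. In colon 1, 23 of 291 cells with Gzmb held Nkg7 (7.9%, against 3 of 319 cells without Gzmb, 0.94%), a share ratio of 8.4. In colon 2 it was in 45 of 831 cells with Gzmb (5.42%) and in 18 of 913 cells without (1.97%), a share ratio of 2.75. Read from the other side, 88.5% of the 26 Nkg7 cells of colon 1 (69.8 to 97.6) and 71.4% of the 63 of colon 2 (58.7 to 82.1) also held Gzmb, against 45.9% and 46.8% of cells without Nkg7. In all, Nkg7 was in 4.26% and 3.61% of the thinned cells, just under the 5% minimum for the count of genes, and its share ratio ranged from 3.84 to 14.3 in colon 1 and from 2.75 to 4.25 in colon 2 over the depths, seeds and cell filters tried. A second random thinning gave 14.3 in colon 1 and 3.70 in colon 2, and the colon 1 value rests on 3 cells without Gzmb.

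Srgn was found in most cells with or without Gzmb. Its share was 85.9% of cells with Gzmb and 79.6% of cells without in colon 1, and 86.8% and 83.6% in colon 2, share ratios of 1.08 and 1.04. Its summed level was 4292 CPM in cells with Gzmb and 4022 in cells without in colon 1, and 4463 and 4214 CPM in colon 2. Both transcripts were found together in 41.0% of thinned colon 1 cells, 41.3% of colon 2 cells and 0.979% of spleen cells. Srgn without Gzmb was found in 41.6%, 43.8% and 44.4% of all thinned cells in the same order. Cells without Gzmb made up 52.3% of thinned cells in colon 1, 52.4% in colon 2 and 98.5% in spleen. The shares of Srgn without Gzmb therefore do not compare such cells between tissues. Among cells without Gzmb, Srgn was in 254 of 319 in colon 1, 763 of 913 in colon 2 and 272 of 604 in spleen.

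Prf1 and Gzma were almost never seen beside Gzmb. At the full depth, 1 of 324 cells with Gzmb held Prf1 in colon 1 and 4 of 934 in colon 2, against 2 of 295 and 2 of 838 cells without Gzmb. Gzma was in 2 of 324 and 7 of 934 cells with Gzmb, against 1 of 295 and 7 of 838 cells without. These counts cannot show a difference at this depth. A thinned cell with Gzmb together with Gzma or Prf1 was found 2 times among 610 cells of colon 1 and 6 times among 1744 cells of colon 2.

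The granzyme B inhibitor was not found more often in the cells with the enzyme. Serpinb9 was in 0.344% of cells with Gzmb and 2.19% of cells without in colon 1, and in 1.81% and 2.74% in colon 2, and the intervals of the shares overlapped in each library. Serpinb6b was in 1.72% and 1.25% in colon 1 and in 2.65% and 3.72% in colon 2, in opposite order between libraries. Ctsw was in 0.687% and 1.88% in colon 1 and in 1.08% and 1.1% in colon 2.

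By the rule that counts a gene when its share ratio is 1.5 or more in both libraries among genes in at least 5% of thinned cells, 0 of the 7 members passed and only Srgn was frequent enough to be counted. Over all genes, 22 of 2243 passed in that direction, which is 0.981%, and 21 passed in the other, which is 0.936%. With genes in at least 1% of cells admitted, a choice made after seeing the data, 5 members were counted. Of these Nkg7 passed upwards, where 1.9% of all 6532 genes did, and Serpinb9 passed downwards, where 3.67% did. The colon 1 value of Serpinb9 rests on 1 cell with Gzmb, and over the alternatives its share ratio ranged from 0 to 0.623 in colon 1 and from 0.459 to 0.918 in colon 2, short of the threshold in colon 2 at 500 UMIs (0.918), with at least 2 Gzmb UMIs (0.709) and without cells holding 2 markers of another type (0.763).

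**Figure D4:**
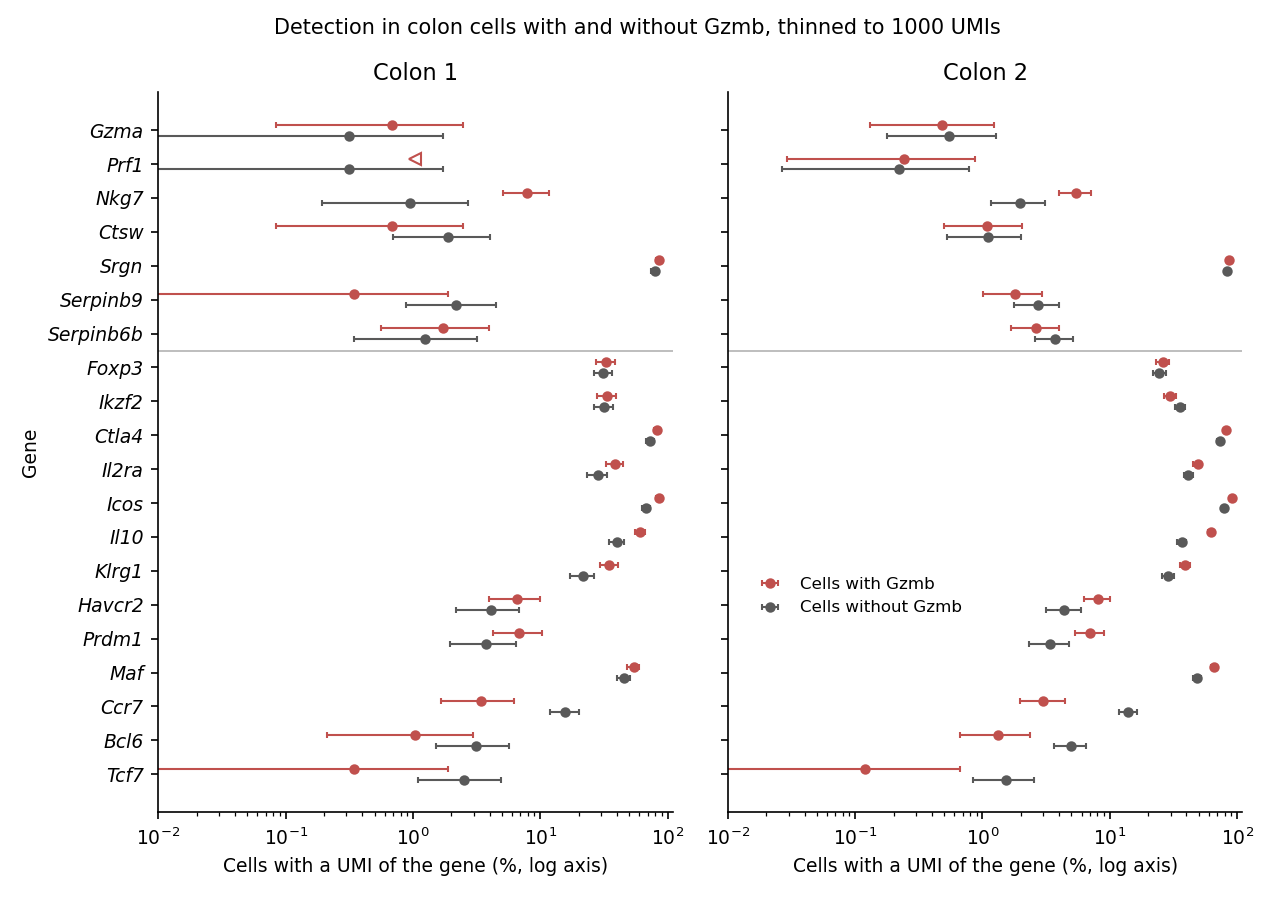
Share of thinned cells with a UMI of each gene among colon cells with Gzmb (red) and without it (grey), on a log axis with exact 95% binomial intervals; members stand above the line and panel genes below it, intervals that reach past 0.01% are cut at the axis, and the open triangle marks 0 cells, drawn at 3 counts. Nkg7 and Il10 lie to the right in cells with Gzmb in both libraries, and Ccr7 lies to the left, at 3.44% against 15.7% in colon 1 and 3.01% against 13.9% in colon 2.

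A panel of Treg genes placed the cells with Gzmb among the others. Il10, the gene of the suppressive cytokine interleukin 10, was in 61.2% of cells with Gzmb and 40.1% of cells without in colon 1, and in 62.8% and 36.7% in colon 2. Prdm1, which encodes the effector regulator Blimp-1, was in 6.87% and 3.76% in colon 1 and in 6.98% and 3.4% in colon 2. Havcr2, the gene of the inhibitory receptor Tim-3, was in 6.53% and 4.08% in colon 1 and in 8.06% and 4.38% in colon 2. These 3 were the panel genes past a share ratio of 1.5 in both libraries, of 21 in the panel that were frequent enough. Over all genes, 22 of 2243 passed, which is 0.981%. The panel was chosen with earlier results of these data known, so its count is a description only. In colon 1 the intervals of both sides overlapped for Prdm1 and for Havcr2, and in colon 2 they did not. Without thinning, the share ratio of Il10 was 1.47 in colon 1 and 1.68 in colon 2, so that it no longer passed.

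Ccr7, the homing receptor of lymph node-seeking T cells, was the panel gene past that ratio in the other direction, where 0.936% of all 2243 genes passed. It was in 3.44% of cells with Gzmb and 15.7% of cells without in colon 1 and in 3.01% and 13.9% in colon 2, so that it was found 4.56 and 4.62 times less often beside Gzmb. Turned round, Gzmb was in 16.7% of the 60 colon 1 cells with Ccr7 (8.29 to 28.5) and 16.4% of the 152 in colon 2 (10.9 to 23.3), against 51.1% and 50.6% of cells without it. Tcf7 and Bcl6, factors of resting and follicular-type T cells, were too rare to be counted. Tcf7 was in 0.344% of cells with Gzmb and 2.51% of cells without in colon 1, with overlapping intervals, and in 0.12% (0.00305 to 0.669) and 1.53% (0.841 to 2.56) in colon 2. Bcl6 was in 1.03% and 3.13% in colon 1, with overlapping intervals, and in 1.32% (0.663 to 2.36) and 4.93% (3.62 to 6.54) in colon 2.

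The other 17 panel genes that were frequent enough stayed within the factor in at least 1 library. Their share ratios lay between 0.838 (Ikzf2 in colon 2) and 1.6 (Klrg1 in colon 1). Foxp3 was in 32.6% of cells with Gzmb and 31.3% of cells without in colon 1 and in 26.0% and 24.5% in colon 2, and Il2rb, Cd4, Il2ra and Ctla4 differed by 1.36 times or less. Klrg1, a receptor of highly differentiated Tregs, was in 34.7% and 21.6% in colon 1 and in 38.9% and 28.7% in colon 2, ratios of 1.6 and 1.35. The ST2 receptor gene Il1rl1 (1.19 and 1.17), the growth factor gene Areg (1.1 and 0.985) and Gata3 (1.42 and 0.978), all of tissue-repair type Tregs, did not pass, nor did Icos, Lag3, Tnfrsf9, Irf4, Batf, Maf or the early gene Fosb. Tigit, Hspa1a and Mki67 were too rare in at least 1 library to be counted.

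The shares were also taken by the amount of Gzmb. From cells with 0, 1, 2 to 4, and 5 or more Gzmb UMIs, Il10 was found in 40.1%, 51.0%, 58.3% and 67.4% of colon 1 cells and in 36.7%, 62.1%, 58.7% and 66.1% of colon 2 cells. Ccr7 was found in 15.7%, 9.8%, 3.7% and 0.758% of colon 1 cells and in 13.9%, 6.83%, 1.75% and 2.34% of colon 2 cells. The middle classes hold 51 to 286 cells, and neighbouring classes overlapped in most intervals, while the end classes did not for either gene. Nkg7 was found in 0.94%, 5.88%, 9.26% and 7.58% of colon 1 cells and in 1.97%, 2.48%, 3.15% and 8.33% of colon 2 cells, with the highest class clear of the lowest in both libraries. Prdm1 was highest in the class of 2 to 4 UMIs, at 3.76%, 1.96%, 10.2% and 6.06% in colon 1 and 3.4%, 5.59%, 9.09% and 5.99% in colon 2. Havcr2 was also highest in that class, at 4.08%, 1.96%, 11.1% and 4.55% in colon 1 and 4.38%, 4.35%, 10.1% and 8.07% in colon 2. For Prdm1 and Havcr2 the intervals of the classes of 2 to 4 and of 5 or more UMIs overlapped in each library. The order of these classes is therefore not settled. Foxp3 had no such order, at 31.3%, 37.3%, 29.6% and 33.3% in colon 1 and 24.5%, 24.8%, 25.9% and 26.6% in colon 2.

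**Figure D5:**
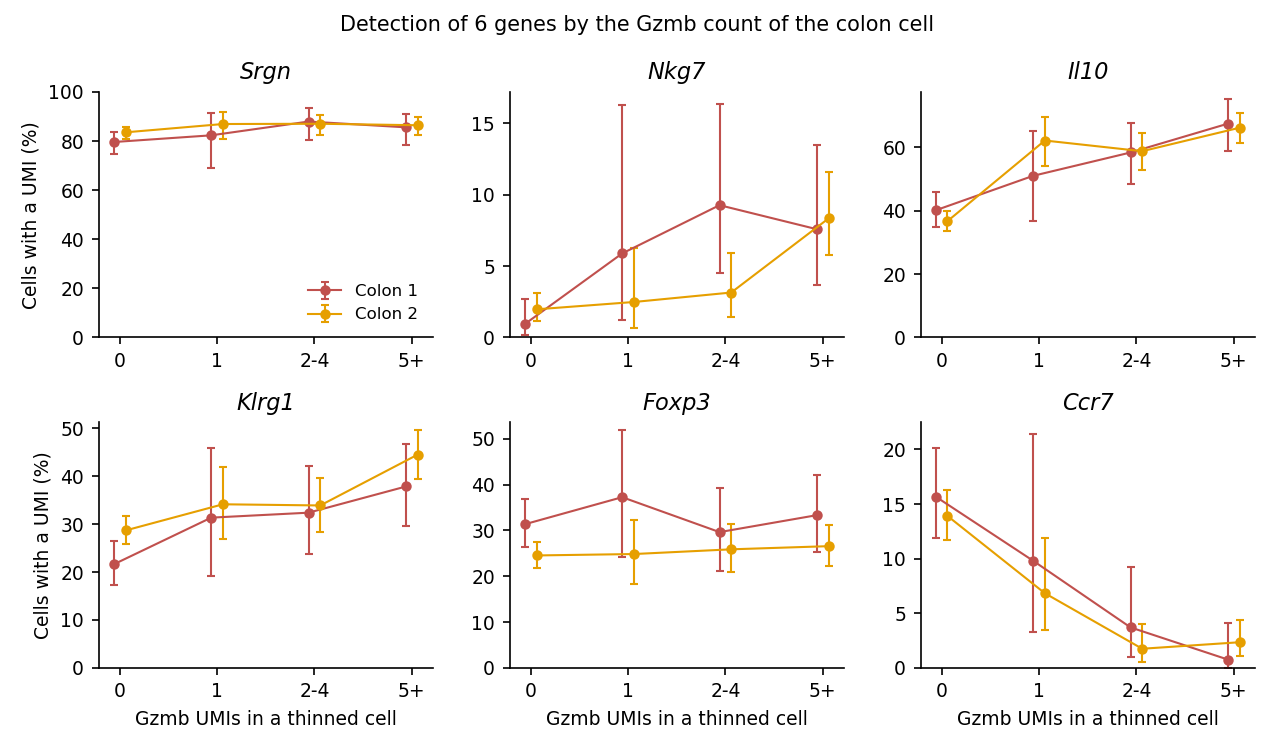
Share of thinned colon cells with a UMI of Srgn, Nkg7, Il10, Klrg1, Foxp3 and Ccr7 by the Gzmb count of the cell (0, 1, 2 to 4, 5 or more), for colon 1 (red) and colon 2 (orange), with exact 95% binomial intervals; each panel has its own vertical scale from 0. Il10 stands at 67.4% and 66.1% in the highest Gzmb class against 40.1% and 36.7% in the class without Gzmb, and Ccr7 at 0.758% and 2.34% against 15.7% and 13.9%.

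Genes were also ranked by their likeness to Gzmb, as the Pearson r of log(1 + UMIs per 10000) over the 619 cells of colon 1 and the 1772 cells of colon 2, among 3488 genes in at least 5% of cells of both. All values were low, counts per cell are sparse, and genes of a cell share its library and depth, so the ranking is a description only. S100a6, a calcium-binding protein gene, ranked first with r of 0.31 in colon 1 and 0.32 in colon 2, followed by Il10 (0.24 and 0.30), the galectin gene Lgals1 (0.23 and 0.23), the cytoskeletal genes Vim (0.23 and 0.29) and Tmsb4x (0.21 and 0.24), the lamin gene Lmna (0.21 and 0.22), Fgl2, which encodes a secreted suppressor of Tregs (0.20 and 0.23), Itm2b (0.20 and 0.23), Crip1 (0.21 and 0.19) and Icos (0.22 and 0.19). Among members, Nkg7 ranked 14 (0.22 and 0.17) and Srgn 137 (0.08 and 0.06), and the others were in too few cells to be ranked, with r between -0.07 and 0.05. The lowest were Ccr7 (-0.25 and -0.22), the chemokine receptor gene Cxcr4 (-0.19 and -0.22), Tbc1d4 (-0.20 and -0.18), Lrig1 (-0.18 and -0.15) and the phosphatase gene Dusp10 (-0.14 and -0.14).

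A higher level in colon was found among the genes most like Gzmb and also among those least like it. Of the 10 most like Gzmb, all but Tmsb4x had a higher CPM in both colon libraries than in spleen. Tmsb4x had 15549 CPM in colon 1, 11988 in colon 2 and 12356 in spleen, whereas Lmna had 879, 1095 and 5.57 CPM. Of the 5 least like Gzmb, Dusp10 had 173, 168 and 15.9 CPM and Ccr7 had 244, 259 and 135 CPM. These were at a higher summed level in colon than in spleen although they were found less often in colon cells with Gzmb than without. Tbc1d4, of the same 5, had 67.8, 58.7 and 78.0 CPM, and Ccr7 was in 9.84% of thinned cells of colon 1, 8.72% of colon 2 and 10.6% of spleen. The share of cells with S100a6 was 81.1% with Gzmb and 57.1% without in colon 1, and 79.5% and 56.6% in colon 2. Cxcr4 was in 14.1% and 27.0% in colon 1 and in 15.4% and 28.6% in colon 2.

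The 13 spleen cells with Gzmb were few, and only some genes of the panel are named for them here. Their Gzmb counts were 9, 9, 7, 6, 5, 4, 3, 2, 2, 2, 1, 1 and 1, and their median depth was 2369 UMIs against 1836.5 in the 604 other spleen cells. Klrg1 was in 8 of 13 (61.5%, 31.6 to 86.1) and in 9.44% of the others, Id2 in 8 of 13 and 9.27%, and Nkg7 in 3 of 13 (23.1%, 5.04 to 53.8) and 2.15%. Il10 was in 1 of 13 (7.69%, 0.195 to 36.0) and 2.32%, and Ikzf2, the gene of the Treg factor Helios, was in 11 of 13 and 50.3%. Icos was in 8 of 13 and 25.2%, Areg in 3 of 13 and 2.65%, and Irf4 in 3 of 13 and 2.98%. Il2ra was in 1 of 13 (7.69%, 0.195 to 36.0) and 29.6%. Prf1 and Gzma were in 0 of 13, with an exact interval of 0 to 24.7% (23.1% at the floor of 3 counts). Ccr7 was in 0 of 13 (0 to 24.7%) and in 17.4% of the others, a share within that interval. Id2 was added to the panel here after its values were seen, and these shares are at the deposited depth, which differed between the sides.

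Markers of Tregs and of other cells that can hold granzymes were counted in cells with and without Gzmb. At least 1 of 8 Treg and CD4 T cell markers was found in 323 of 324 cells with Gzmb in colon 1, 931 of 934 in colon 2 and 13 of 13 in spleen, against 292 of 295, 835 of 838 and 588 of 604 cells without. That list includes Cd3d, Cd3e and Cd3g, which any T cell carries, and it was near its ceiling on both sides. Of 8 markers of natural killer or innate lymphoid cells, 3 had a UMI in colon 1, 6 in colon 2 and 3 in spleen, at a summed 4.79, 11.2 and 3.98 CPM, and the defining receptor gene Ncr1 was at 0 in colon 1 and spleen. A marker of that list was in 0.617% of cells with Gzmb and 0.678% of cells without in colon 1, and in 0.749% and 2.27% in colon 2. Of 8 mast cell markers, Cpa3, Mcpt1, Mcpt2, Fcer1a, Ms4a2 and Gata2 were at 0 in every library, while Kit and Hdc were found in both colon libraries. The list summed to 9.58, 9.19 and 0 CPM in colon 1, colon 2 and spleen. In colon 1 a marker of it was in 0 of 324 cells with Gzmb and 5 of 295 without. In colon 2 it was in 14 of 934 and 9 of 838.

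Of the CD8 markers, Cd8a was at 0 in colon 1, and the pair summed to 50.3 CPM in colon 1, 41.9 in colon 2 and 65.3 in spleen, nearly all of it Cd8b1. A CD8 marker was in 8.33% of cells with Gzmb and 8.14% of cells without in colon 1, and in 7.28% and 9.55% in colon 2. In spleen it was in 3 of 13 cells with Gzmb (23.1%) and in 56 of 604 without (9.27%), and 0 cells of any library held both CD8 markers. Without any cell that held a CD8, natural killer or mast cell marker, the log2 ratio of Gzmb was 6.14 in colon 1 and 6.18 in colon 2. Of 8 macrophage or dendritic cell markers, 7 had a UMI in colon 1, 8 in colon 2 and 3 in spleen, at a summed 28.7, 56.4 and 14.3 CPM. They were in 4.94% of cells with Gzmb and 3.05% of cells without in colon 1 and in 5.25% and 5.01% in colon 2, and without cells with 2 or more markers of 1 other cell type the log2 ratios of Gzmb were 6.0 and 6.01. Markers of B cells, plasma cells, stroma and erythroid cells summed to between 0 and 13.5 CPM in any library, and those of colon epithelium to 34.3, 61.5 and 45.4 CPM in colon 1, colon 2 and spleen. Gamma delta T cell markers were not analysed here.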

How the data were processed

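The authors deposited a table of UMI counts per gene and cell for 23725 genes. TopHat2, SAMtools and the build mm10 are listed, per the submitters' processing notes; the annotation, the choice of cells and the treatment of multiply mapped reads are not stated there. All columns were matched to a labelled cell and 0 were left out. UMIs were summed per library and scaled to CPM. Intervals are exact Poisson (CPM), conditional binomial (ratios) and Clopper-Pearson (shares), at 95%, and take UMIs as independent. A count of 0 was read as a floor of 3 counts. For co-detection, cells were thinned to 1000 UMIs with a fixed seed, and a cell with at least 1 Gzmb UMI counted as having Gzmb. Both call rules were tested on simulated data. Cells were not clustered and no doublet caller was run, and cells with 2 markers of another type were left out as an alternative. Gene positions are from GENCODE vM21, and promoters from RefSeq. Tools were Python 3.11.15, numpy 2.4.6, scipy 1.17.1, and R 4.3.3 with edgeR 4.0.16 for TMM scaling.

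The members and lists were chosen with earlier results of these data known. Genes named are all members, the panel, up to 4 genes of each list past the threshold with the largest smaller ratio, the 10 genes most like Gzmb and the 5 least like it, leaving out from these 15 the T cell receptor, antibody, mitochondrial and ribosomal protein genes and gene models with no name, with further genes of the lists named as examples after their values were seen. A few genes under this rule are not reported here. Alternatives were other scalings, cell filters, depths, seeds, minimums and thresholds, and leaving out each colon library.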

Additional observations from a re-analysis of the deposited data

How the results depend on the processing

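The log2 ratio of Gzmb stayed between 5.79 and 6.28 in colon 1 and between 5.78 and 6.23 in colon 2 under scaling by TMM, by median of ratios or by totals that omit ribosomal protein genes, under equal weight per cell and under the 3 cell filters. The count of members above spleen by 2-fold was 3 to 3 without either colon library and 1 (Gzmb) at 4-fold, and the count below was 0 in all of these. The count of members found with Gzmb was 0 in the main setting, 0 to 0 without either colon library, and 1 (Nkg7) when thinned to 1500 UMIs, not thinned, with no minimum share of cells, and with a minimum of 1%. The count found less often was 0, and 1 (Serpinb9) with no minimum or a minimum of 1%; the cause was not tested. Of 98 other member log2 ratios under alternatives 3 left their interval, and of 93 share ratios 12 did, 8 of them of Nkg7; no called member changed sign. Over all genes, 409 up and 155 down became 168 and 24 at 4-fold, 1219 and 1505 with no minimum, 563 and 270 without colon replicate 1, 475 and 241 without colon replicate 2, and 348 and 351 with totals without ribosomal protein genes. The 22 more often and 21 less often with Gzmb became 10 and 14 at 500 UMIs, 39 and 22 at 1500, 53 and 19 unthinned, 595 and 1039 with no minimum, 124 and 240 at 1%, 74 and 81 without colon replicate 1, and 177 and 173 without colon replicate 2. No paired analysis was possible because no result comes from a test and no animal is named in the labels. Whether colon and spleen cells came from the same mice is not known. Members under 50 CPM rest on 3 to 173 UMIs per library, or 0, and differences smaller than their intervals were not detectable at this depth.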

Other observations

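Several genes of the lists did not meet the minimum of 50 CPM in spleen or in both colon libraries but stood apart in their counts, and they are named here after their values were seen. Ccl4, a chemokine of activated killer cells, had 139 UMIs in only 8 cells of colon 1, 84 UMIs in 16 cells of colon 2 and 5 UMIs in 2 cells of spleen, so that a few cells set its level. Serpinb1a, an inhibitor of neutrophil-type serine proteases, had 32.7 CPM in colon 1 (23.5 to 44.4), 21.4 in colon 2 (17.1 to 26.6) and 3.18 in spleen (0.868 to 8.15). Fasl, the gene of the Fas death ligand, had 17.6 CPM in colon 1 (11.0 to 26.6), 17.1 in colon 2 (13.3 to 21.7) and 3.98 in spleen (1.29 to 9.29). The chondroitin sulfotransferase genes ran in opposite directions, with Chst11 at 14.4, 16.3 and 0.796 CPM and Chst12 at 12.8, 12.3 and 27.1 CPM in colon 1, colon 2 and spleen.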
